A study of Mus musculus with 13 samples.

Results

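The genes described here encode 10 core proteins of the Bcl2 family, which sets the threshold for mitochondrial cell death. They are Bcl2, Bcl2l1, Mcl1, Bax, Bak1, Bcl2l11, Bbc3, Bid, Bad and Pmaip1, taken by gene symbol as 10 of the 56748 genes in a table of estimated RNA counts. All 10 passed the filter on low counts that left 14059 genes for testing. The RNA came from CD4+ T helper cells of mouse spleens in 13 libraries of 5 groups.

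Every animal carried Vk12653 multiple myeloma, a transplantable tumour of mouse plasma cells. A Thy1.1 reporter of Foxp3 was present in both mouse lines, and sorting kept T cell receptor positive, CD4+ cells without Thy1.1, so cells with active Foxp3 reporter were left out. One line, Eomes-GFP, reports Eomes, a T-box transcription factor of cytotoxic lymphocytes. The labels do not say how the other line, Eomes-TKO, was made. All animals received 50 µg of NK1.1-depleting antibody on days −2 and 5 and 2100000 tumour cells on day 0. Either an agonist antibody against the costimulatory receptor 4-1BB or control IgG followed at 20 µg on days 10, 13 and 16, and spleens were taken on day 18. Treated Eomes-GFP animals gave 3 libraries of GFP+ cells and 3 of GFP− cells, which share library prefixes in pairs. Eomes-GFP animals given IgG gave 2 libraries and Eomes-TKO animals given IgG gave 3, while Eomes-TKO animals given 4-1BB antibody gave 2. These last 3 groups were not divided by GFP. The labels used here state no age or sex.

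Bcl2, Bcl2l1 (Bcl-xL) and Mcl1 encode pro-survival proteins that hold the pore-forming effectors Bax and Bak1 in check. The BH3-only proteins, Bim (Bcl2l11), Puma (Bbc3), Noxa (Pmaip1), Bad and Bid, bind the pro-survival proteins, and some of them also activate the effectors directly. In T cells, interleukin 7 maintains Bcl2, Bim drives the death of activated cells after a response, and Mcl1 is needed at most stages of life. Costimulation through 4-1BB is known as a survival signal for activated T cells.

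The libraries held 6080975 to 10881146 estimated counts each, and 17127 to 18252 genes had at least 1 count. Eomes, the gene named by the reporter and the Eomes-TKO genotype, stood between 570 and 706 CPM (counts relative to the library's TMM-adjusted total) in GFP+ libraries. It stood between 1.83 and 3.54 CPM in GFP− libraries, at 14 and 16.8 CPM under IgG in Eomes-GFP cells, and between 1.36 and 8.03 CPM in the 5 Eomes-TKO libraries. Foxp3 stood between 0.393 and 2.65 CPM in all 13. The 6 CD4 T cell markers summed to between 2544 and 4706 CPM in each library, and the 2 CD8 markers to at most 12.3 CPM.

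Promoter sequence was available from RefSeq (build GRCm38.p6) for 9 of the 10 genes, all but Pmaip1, in 15 windows of 250 bases before a start site. Each is written 5′ to 3′ on the gene's strand. Of these 5 are shown, because 3 of them hold a searched motif (in capitals) and Bcl2 and Bak1 are the pro-survival gene that fell and the effector that rose most in GFP+ cells. The windows are Bcl2l11 at chr2:128125788-128126037 (plus strand), Bbc3 at chr7:16310011-16310260 (plus), Mcl1 at chr3:95658471-95658720 (plus), Bcl2 at chr1:106714291-106714540 (minus) and Bak1 at chr17:27028628-27028877 (minus).
Bcl2l11: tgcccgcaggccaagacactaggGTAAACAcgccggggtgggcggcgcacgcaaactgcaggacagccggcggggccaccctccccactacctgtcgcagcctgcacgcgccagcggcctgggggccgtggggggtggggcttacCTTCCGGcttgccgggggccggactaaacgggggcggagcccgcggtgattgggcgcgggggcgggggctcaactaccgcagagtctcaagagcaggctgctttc
Bbc3: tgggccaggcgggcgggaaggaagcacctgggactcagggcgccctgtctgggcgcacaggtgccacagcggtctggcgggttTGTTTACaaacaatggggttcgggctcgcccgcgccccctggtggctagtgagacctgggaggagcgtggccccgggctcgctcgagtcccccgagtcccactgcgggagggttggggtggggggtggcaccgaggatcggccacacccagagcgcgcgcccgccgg
Mcl1: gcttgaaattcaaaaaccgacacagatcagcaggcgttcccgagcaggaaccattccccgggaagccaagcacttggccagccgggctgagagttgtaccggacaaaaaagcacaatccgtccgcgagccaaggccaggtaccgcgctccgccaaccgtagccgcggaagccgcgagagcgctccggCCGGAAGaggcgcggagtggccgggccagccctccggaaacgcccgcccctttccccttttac
Bcl2: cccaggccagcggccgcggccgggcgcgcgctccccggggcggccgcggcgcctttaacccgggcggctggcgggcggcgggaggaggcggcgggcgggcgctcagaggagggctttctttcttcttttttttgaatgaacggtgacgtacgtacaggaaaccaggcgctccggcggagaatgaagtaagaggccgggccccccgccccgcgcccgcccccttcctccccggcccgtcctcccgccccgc
Bak1: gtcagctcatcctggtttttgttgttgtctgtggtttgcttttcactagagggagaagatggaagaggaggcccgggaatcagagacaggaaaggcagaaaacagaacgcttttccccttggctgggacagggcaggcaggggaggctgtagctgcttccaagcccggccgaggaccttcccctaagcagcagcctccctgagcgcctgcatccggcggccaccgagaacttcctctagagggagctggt

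A forkhead motif, TGTTTAC on either strand, was found in these Bcl2l11 and Bbc3 windows and in 3.17% of 32851 such windows in the table. Bcl2l11 has it as GTAAACA, 227 to 221 bases before the start, and Bbc3 has it 167 to 161 bases before the start. An ETS motif, CCGGAAG on either strand, was found in the same Bcl2l11 window, as CTTCCGG 105 to 99 bases before the start, and in Mcl1, 63 to 57 bases before it. Of all windows 6.91% held it. A T-box core (AGGTGT, in 11.8% of all windows), a kappa B motif (GGGA, any 2 bases, then TTCC, 1.21%), an AP-1 motif (TGANTCA, 6.75%) and an E2F motif (TTTCCCGC, 0.895%) were not found on either strand in the windows of these 9 genes. The motifs searched do not overlap each other in the windows shown, and a match describes letters, not binding.

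Within 4-1BB-treated animals, GFP+ cells differed from GFP− cells in 7 of the 10 genes. Of these, 5 were higher in GFP+ cells (Bcl2l1, Bax, Bak1, Bid and Pmaip1), 2 were lower (Bcl2 and Mcl1) and 3 did not pass the test (Bcl2l11, Bbc3 and Bad). All differences were tested with edgeR's quasi-likelihood test, with Benjamini-Hochberg adjustment over 14059 genes at a threshold of 0.05. In this comparison 37.1% of all tested genes passed, 20.7% higher and 16.5% lower, so a change as such was common. The groups did not overlap in these 7 genes and in Bcl2l11, nor in 51.3% of all genes. The median log2 difference of the 10 genes was 0.40, against 0.02 over all genes tested. In bulk RNA, fewer cells of a type and less RNA per cell cannot be told apart.

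**Figure D1:**
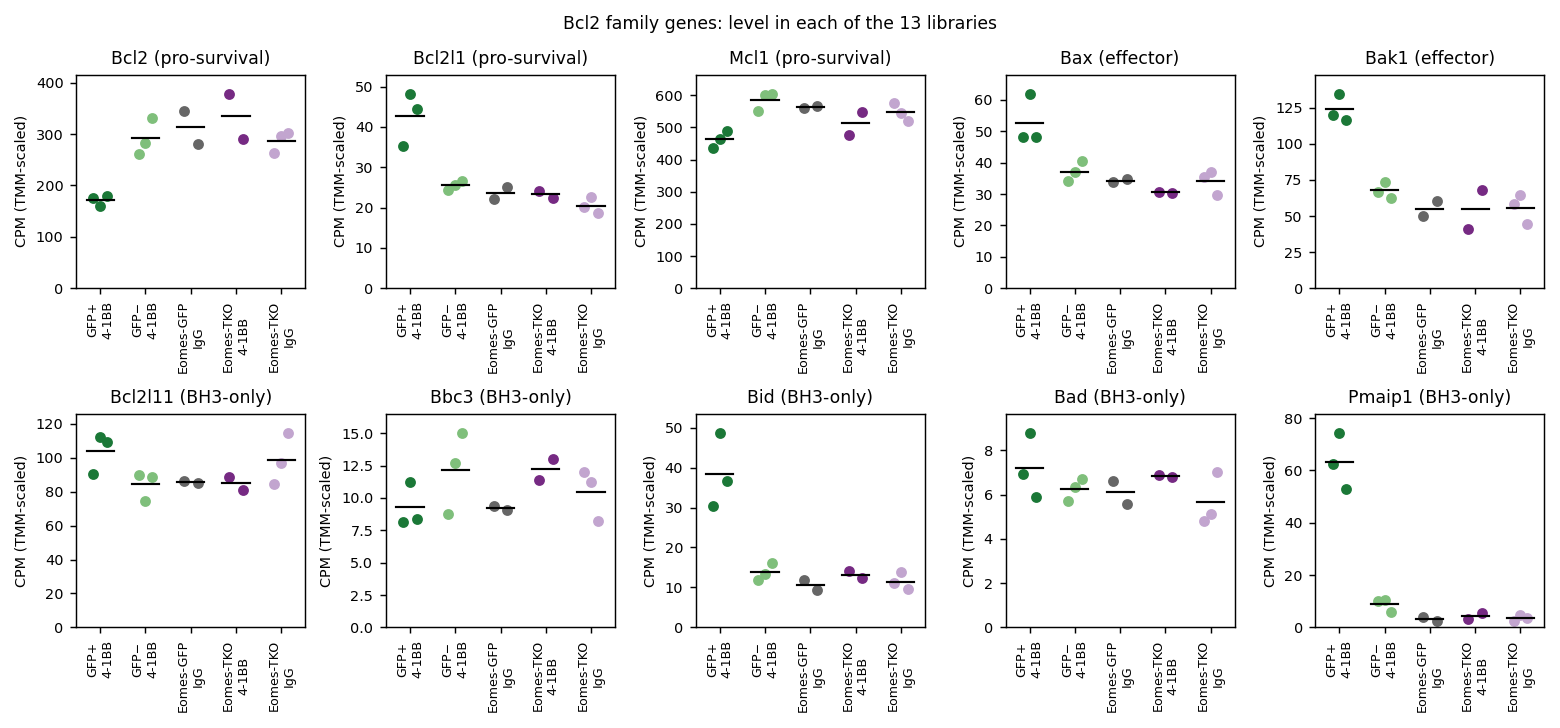
Level of each of the 10 genes (vertical axes, TMM-scaled CPM, starting at 0) in each of the 13 libraries, by group, with bars at group means. GFP+ libraries lie below all others for Bcl2, below GFP− libraries for Mcl1, and above all others for Bcl2l1, Bax, Bak1, Bid and Pmaip1, as for Pmaip1 at 53.1 to 74.2 CPM against at most 10.4.

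Among the pro-survival genes, GFP+ libraries held 176, 159 and 179 CPM of Bcl2 where GFP− libraries held 261, 283 and 332 CPM. Each GFP+ value lay below each GFP− value. Bcl2 was 1.70-fold lower in GFP+ cells, a log2 difference of −0.77 ± 0.12 (SE), with adjusted p = 0.000223. Between libraries of shared prefix, the log2 difference was −0.57, −0.83 and −0.89, so it was lower in 3 of 3 pairs. The other 7 libraries, under IgG or in Eomes-TKO cells, held 262 to 378 CPM, above every GFP+ library.

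Bcl2l1, which encodes Bcl-xL, a survival protein induced on T cell activation, moved the other way. Its level was 35.2, 48.2 and 44.5 CPM in GFP+ cells but 24.3, 25.7 and 26.5 CPM in GFP− cells. This was 1.67-fold higher (log2 0.74 ± 0.14, adjusted p = 0.000687), with no overlap. The remaining 7 libraries lay between 18.6 and 25.1 CPM. Mcl1, whose protein turns over rapidly, was high everywhere: GFP+ libraries held 437, 463 and 487 CPM, and GFP− libraries 552, 600 and 604 CPM. Its difference was the smallest of those that passed, at 1.27-fold lower (log2 −0.34 ± 0.09, adjusted p = 0.00792).

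Both effectors were higher in GFP+ cells. GFP+ libraries held 120, 135 and 117 CPM of Bak1, and GFP− libraries 67.0, 73.5 and 62.7 CPM. It was 1.83-fold higher (log2 0.87 ± 0.17, adjusted p = 0.000967), and the 3 pairs of shared prefix gave 0.85, 0.87 and 0.90. Bax was measured at 48.2, 61.9 and 48.1 CPM against 34.0, 36.9 and 40.5 CPM, 1.42-fold higher (log2 0.50 ± 0.13, adjusted p = 0.00732). Bax also did not overlap between the groups, but its call rested on the highest GFP+ library: without GFP+ replicate 2 it was 0.34 with adjusted p = 0.0563.

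The 5 BH3-only genes did not move as 1 group: 2 were higher in GFP+ cells and 3 did not pass. Pmaip1, which encodes Noxa, an antagonist mainly of Mcl1 and A1, differed most. The 3 values were 62.6, 74.2 and 53.1 CPM in GFP+ cells, and 10.2, 10.4 and 5.78 CPM in GFP− cells. The lowest GFP+ library was far above the highest GFP− library. The difference was 7.25-fold (log2 2.86 ± 0.27, adjusted p = 1.31e-06), and 4.03% of tested genes had a larger one. In pairs of shared prefix the log2 difference was 2.61, 2.84 and 3.20.

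Bid links death receptors to mitochondria once caspase 8 cuts it. GFP+ libraries held 30.4, 48.6 and 36.5 CPM of it, GFP− libraries 11.8, 13.4 and 16.2 CPM, again without overlap. Bid was 2.78-fold higher (log2 1.47 ± 0.20, adjusted p = 5.07e-05).

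Bcl2l11, which encodes Bim, did not pass. Its values were 90.1, 112 and 109 CPM in GFP+ cells, beside 89.9, 74.3 and 88.5 CPM in GFP− cells. All 3 GFP+ values were higher, but the lowest of them exceeded the highest GFP− value by little. The log2 difference was 0.30 ± 0.12 (adjusted p = 0.0709), and the pairs of shared prefix gave 0.0031, 0.59 and 0.30. Without GFP+ replicate 1 it passed, at 0.36 with adjusted p = 0.0418. Bbc3, which encodes the p53-induced protein Puma, stood at 8.18, 11.3 and 8.38 CPM against 8.78, 12.7 and 15 CPM. Bad, whose protein is held inactive by growth factor signalling, stood at 6.93, 8.77 and 5.91 CPM against 5.73, 6.34 and 6.68 CPM. Both overlapped between groups, with log2 differences of −0.40 ± 0.23 (adjusted p = 0.198) for Bbc3 and 0.20 ± 0.23 (adjusted p = 0.548) for Bad.

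Reads from overlapping genes bear on some of these values, because the strand setting of the counting is not given in the sources used here. In GENCODE M21, 17.7% of Bid's exon bases overlap Bcl2l13 on the opposite strand. Bcl2l13 held 57.8 to 72.8 CPM in all 13 libraries and gave a log2 difference of 0.01 (adjusted p = 0.965) between GFP+ and GFP− cells. For Bak1, 25.5% of exon bases overlap Ggnbp1, which held at most 1.46 CPM. For Bad, 20.5% overlap Gpr137, at 5.68 to 10.7 CPM and a log2 difference of 0.25 (adjusted p = 0.403). The partners overlapping Bax and Bcl2 held at most 0.416 CPM, and the other 5 genes had no overlap.

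**Figure D2:**
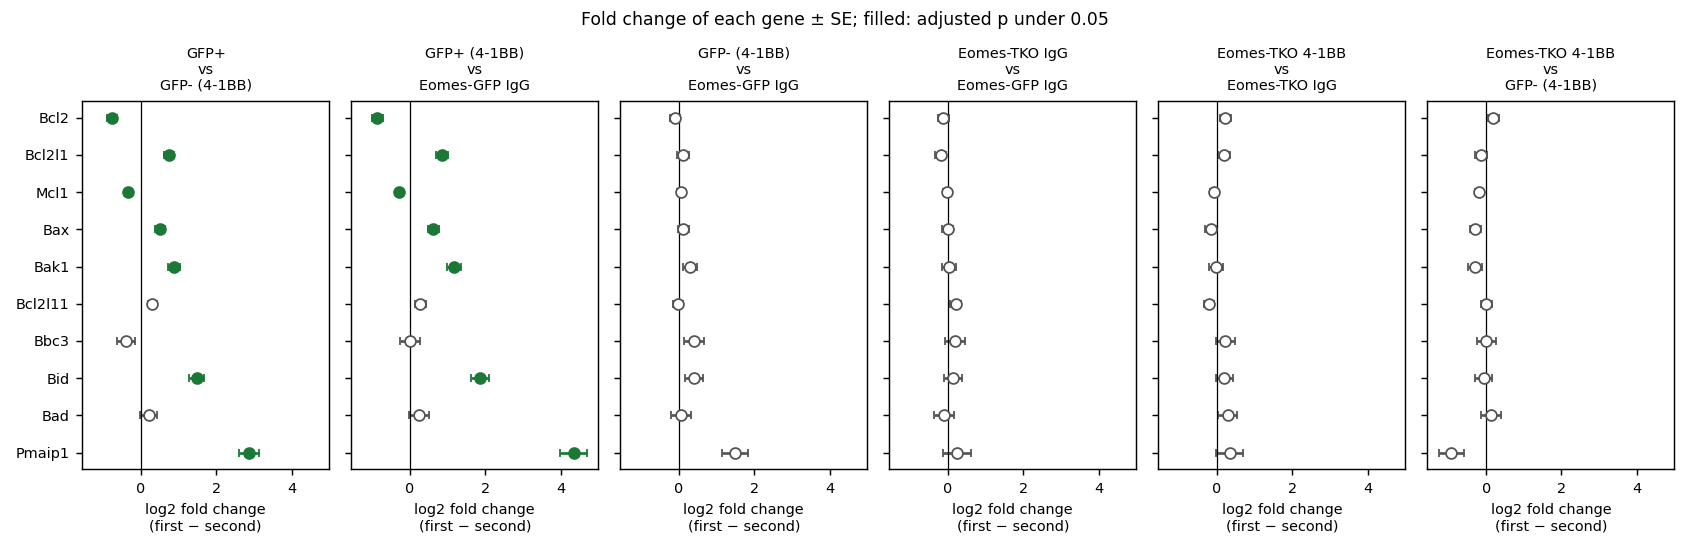
Log2 fold change (horizontal axes) of the 10 genes in 6 comparisons, first group minus second, with bars of 1 SE and filled points at adjusted p under 0.05. The 2 panels with GFP+ cells each hold 7 filled points, and the other 4 panels hold none.

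Markers of other states and cells also differed between GFP+ and GFP− cells. The 10 proliferation genes were all higher in GFP+ cells and summed to 1027 to 1359 CPM, against 331 to 431 CPM in GFP− libraries. The 10 immediate early genes summed to 1805 to 2153 CPM against 4528 to 4737 CPM, with 7 of 9 tested lower in GFP+ cells. Plasma cell or myeloma markers summed to 129 to 148 CPM against 55.6 to 63.2 CPM. Of these 6 markers Igkc stood at 79.2 against 0.355 CPM, Mzb1 and Tnfrsf17 were at 0 in GFP+ libraries, and Xbp1 was 55.9 against 57.5 CPM. The 8 myeloid markers summed to 70.4 to 97.9 against 30 to 51.4 CPM. The 6 CD4 T cell markers summed to 4175 to 4706 against 2912 to 3099 CPM, with 4 of 6 called higher in GFP+ cells. The 6 B cell markers summed to 14.5 to 23.7 against 13.8 to 16.9 CPM. The 5 NK or innate-like markers summed to 0.655 to 2.58 against 8.04 to 18.8 CPM, with Ncr1 at 0 in both, and the 5 erythroid markers to at most 5.36 CPM. The part of these differences in the levels of the 10 genes was not tested.

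The undivided cells of IgG-treated Eomes-GFP animals were the second reference for GFP+ cells. Here antibody and GFP sorting differ together and cannot be told apart. The comparison shares its GFP+ libraries with the one above. The same 7 genes passed, 5 higher and 2 lower in GFP+ cells, where 34.2% of all genes passed (18.8% higher, 15.4% lower). The median log2 difference of the 10 genes was 0.45. Beside them, all 10 proliferation genes were higher in GFP+ cells (1027 to 1359 against 75.7 to 142 CPM summed), as were 5 of 7 tested myeloid markers (70.4 to 97.9 against 20.5 to 22.9 CPM). Plasma cell or myeloma markers summed to 129 to 148 against 48.3 to 48.9 CPM, with 1 of 3 tested higher. Immediate early genes summed to 1805 to 2153 against 3168 to 3263 CPM, with 5 of 9 tested lower, and NK or innate-like markers to 0.655 to 2.58 against 22.3 to 39.4 CPM, with 2 of 2 lower. CD4 T cell markers summed to 4175 to 4706 against 2800 to 3195 CPM (4 of 6 higher) and B cell markers to 14.5 to 23.7 against 7.44 to 8.52 CPM (1 of 2 tested higher). Their part in the result was not tested.

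Pmaip1, at 3.94 and 2.35 CPM under IgG, was 20.4-fold higher in GFP+ cells (log2 4.35 ± 0.35, adjusted p = 3.92e-07). Bid, at 11.8 and 9.40 CPM, was 3.64-fold higher (log2 1.86 ± 0.24, adjusted p = 2.82e-05). Bak1, at 49.9 and 60.3 CPM, was 2.25-fold higher (log2 1.17 ± 0.19, adjusted p = 0.000311). Each GFP+ library lay above both IgG libraries for these 3 genes. Of all genes, 57.1% did not overlap in this comparison.

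Bcl2, at 344 and 282 CPM under IgG, was 1.82-fold lower in GFP+ cells (log2 −0.87 ± 0.14, adjusted p = 0.000179). Bcl2l1, at 22.0 and 25.1 CPM, was 1.81-fold higher (log2 0.86 ± 0.16, adjusted p = 0.000677). Bax, at 33.7 and 34.8 CPM, was 1.54-fold higher (log2 0.62 ± 0.15, adjusted p = 0.00463). Without Eomes-GFP IgG replicate 1, Bax did not pass (0.56, adjusted p = 0.0640); that fit leaves 1 IgG library, assumed to vary like the other groups.

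Mcl1 was near the threshold, at 560 and 565 CPM under IgG and a log2 difference of −0.28 ± 0.10 (adjusted p = 0.0392). It did not pass without GFP+ replicate 1 (adjusted p = 0.0841), without Eomes-GFP IgG replicate 1 (0.107) or replicate 2 (0.159), where the last 2 fits again rest on a lone IgG library and the spread of the other groups. It also missed the threshold with no filter on low counts (0.0927) and with the 2 groups fitted alone (0.0519). Bcl2l11, at 86.5 and 85.3 CPM under IgG, had a log2 difference of 0.27 ± 0.14 (adjusted p = 0.148). The values were 0.00 ± 0.26 for Bbc3 and 0.24 ± 0.26 for Bad, neither passing.

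Treated GFP− cells were then compared with the same 2 IgG libraries. Those cells were undivided, so here too antibody and GFP sorting differ together and cannot be told apart. None of the 10 genes passed in edgeR, where 0.761% of all genes did. An unadjusted p under 0.05 was found for 1 of the 10, Pmaip1, and for 8.76% of all genes. DESeq2 called 1 of the 10 and limma-voom 0. Pmaip1 held 10.2, 10.4 and 5.78 CPM in GFP− libraries, all above the 3.94 and 2.35 CPM under IgG; the groups did not overlap in 30% of all genes. Its log2 difference was 1.49 ± 0.35 with adjusted p = 0.0741 in edgeR and adjusted p = 0.00285 in DESeq2. Over the alternatives tried its adjusted p ran from 1.41e-05 to 0.407, and over single libraries left out from 0.0568 to 0.674. The proliferation markers moved with it, at 331 to 431 CPM in GFP− libraries and 75.7 to 142 CPM under IgG, with 7 of 10 called higher. Myeloid markers summed to 30 to 51.4 against 20.5 to 22.9 CPM (1 of 7 tested called higher), and immediate early genes to 4528 to 4737 against 3168 to 3263 CPM (3 of 9 tested called higher). NK or innate-like markers summed to 8.04 to 18.8 against 22.3 to 39.4 CPM (1 of 2 tested called lower). B cell markers summed to 13.8 to 16.9 against 7.44 to 8.52 CPM, with 0 of 2 tested called. The part of these markers was not tested. The other 9 genes had log2 differences of −0.10 (Bcl2), 0.11 (Bcl2l1), 0.06 (Mcl1), 0.12 (Bax), 0.29 (Bak1), −0.03 (Bcl2l11), 0.40 (Bbc3), 0.39 (Bid) and 0.04 (Bad).

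Under IgG, Eomes-TKO cells were compared with undivided Eomes-GFP cells. None of the 10 genes passed in edgeR, where 0.0142% of all genes did, and DESeq2 and limma-voom called 0. An unadjusted p under 0.05 was found for 0 of the 10 and for 3.06% of all genes. Log2 differences ran from −0.20 ± 0.16 for Bcl2l1 to 0.23 ± 0.37 for Pmaip1. They were −0.12 for Bcl2, −0.04 for Mcl1, −0.01 for Bax, 0.02 for Bak1, 0.20 for Bcl2l11, 0.19 for Bbc3, 0.12 for Bid and −0.11 for Bad. Bcl2 stood at 262, 297 and 302 CPM in Eomes-TKO and 344 and 282 CPM in Eomes-GFP libraries. Pmaip1 stood at 2.61, 4.64 and 3.59 against 3.94 and 2.35 CPM, and Bcl2l11 at 84.2, 96.9 and 114 against 86.5 and 85.3 CPM. Bcl2 and Pmaip1 overlapped between the groups, and so did Bcl2l11.

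Within Eomes-TKO animals, 4-1BB antibody and IgG were compared directly. None of the 10 genes passed in edgeR (0.0427% of all genes did), and DESeq2 and limma-voom called 0. An unadjusted p under 0.05 was found for 0 of the 10 and for 3.6% of all genes. Log2 differences ran from −0.22 ± 0.14 for Bcl2l11 to 0.33 ± 0.35 for Pmaip1. They were −0.09 for Mcl1, −0.16 for Bax, −0.02 for Bak1, 0.22 for Bbc3 and 0.28 for Bad. Bcl2 stood at 378 and 291 CPM after 4-1BB antibody, a log2 difference of 0.22 ± 0.14. Bcl2l1 stood at 24.2 and 22.4 CPM against 20.1, 22.7 and 18.6 CPM, a difference of 0.18 ± 0.16. Bid stood at 14.1 and 12.4 against 11.1, 13.8 and 9.56 CPM (0.20 ± 0.24). These IgG libraries are also those of the genotype comparison. Proliferation markers summed to 149 to 384 CPM after 4-1BB antibody against 61.8 to 88.6 CPM, with 2 of 10 called higher. NK or innate-like markers summed to 15.3 to 19.7 against 30.4 to 38.1 CPM, with 0 of 2 tested called. Plasma cell or myeloma markers summed to 61.7 to 73.1 against 47.6 to 56.7 CPM. Of the 3 tested, 0 were called and 2 had an unadjusted p under 0.05. Among them Igkc stood at 11.5 against 0.589 CPM, Jchain at 3.96 against 0 CPM and Xbp1 at 51.6 against 52.3 CPM. Myeloid markers summed to 24.7 to 37.0 against 26.3 to 27.0 CPM. Of 7 tested 0 were called and 2 had an unadjusted p under 0.05. The part of these markers was not tested.

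Treated Eomes-TKO cells were set beside each of the 2 treated Eomes-GFP fractions. Against GFP− cells, none of the 10 genes passed in edgeR, where 0.0427% of all genes did, and DESeq2 and limma-voom called 0. Pmaip1 was the 1 gene of the 10 with an unadjusted p under 0.05, as 6.97% of all genes had. It stood at 3.28 and 5.63 CPM in Eomes-TKO cells, a log2 difference of −0.93 ± 0.34 (adjusted p = 0.590). The other 9 genes ranged from −0.30 ± 0.19 for Bak1 to 0.19 ± 0.14 for Bcl2. Between them lay Bax (−0.29), Mcl1 (−0.19), Bcl2l1 (−0.13), Bid (−0.07), Bcl2l11 (0.01), Bbc3 (0.01) and Bad (0.12). Immediate early genes summed to 3070 to 3518 CPM in Eomes-TKO and 4528 to 4737 CPM in GFP− libraries, with 0 of 9 tested called. Proliferation markers summed to 149 to 384 against 331 to 431 CPM, with 0 of 10 called. Plasma cell or myeloma markers summed to 61.7 to 73.1 against 55.6 to 63.2 CPM, with 0 of 3 tested called. Of these Igkc stood at 11.5 against 0.355 CPM. The part of these markers was not tested.

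Against GFP+ cells, 6 of the 10 genes passed, where 34.6% of all genes did (15.7% higher and 18.8% lower in Eomes-TKO cells). Bcl2 was higher in Eomes-TKO cells (log2 0.96 ± 0.14, adjusted p = 7.54e-05). Pmaip1 (−3.79 ± 0.34, adjusted p = 1.07e-06), Bid (−1.54 ± 0.24), Bak1 (−1.17 ± 0.20), Bcl2l1 (−0.87 ± 0.16) and Bax (−0.79 ± 0.15) were lower. Bcl2l11 (−0.29 ± 0.14), Bbc3 (0.40 ± 0.26) and Bad (−0.07 ± 0.26) did not pass. Mcl1 held 478 and 549 CPM in Eomes-TKO cells and did not pass (0.15 ± 0.10, adjusted p = 0.269). It did pass under upper-quartile scaling (0.31, adjusted p = 0.0194), a scaling that moved the median of all genes to 0.16. Eomes-TKO cells were not divided by GFP, so the fractions compared differ in sorting as well as in genotype. All 10 proliferation genes were lower in Eomes-TKO cells (149 to 384 against 1027 to 1359 CPM summed), as were 5 of 6 CD4 T cell markers (2544 to 3436 against 4175 to 4706 CPM) and 2 of 7 tested myeloid markers (24.7 to 37.0 against 70.4 to 97.9 CPM). Plasma cell or myeloma markers summed to 61.7 to 73.1 against 129 to 148 CPM, with 1 of 3 tested lower and 1 higher, and B cell markers to 8.28 to 15.3 against 14.5 to 23.7 CPM, with 1 of 2 tested lower and 1 higher. NK or innate-like markers (15.3 to 19.7 against 0.655 to 2.58 CPM) had 2 of 2 tested higher, and immediate early genes (3070 to 3518 against 1805 to 2153 CPM) 5 of 9. Their part in the result was not tested.

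Because members act by binding each other, ratios of counts within a library were taken, which do not depend on scaling between libraries. They describe RNA and carry no test here. The log2 ratio of Bcl2l11 to Bcl2 was −0.97, −0.51 and −0.71 in GFP+ libraries, a mean of −0.73 ± 0.23 (SD, n = 3). It was −1.79 ± 0.22 (SD, n = 3) in GFP− libraries, and the 10 libraries outside GFP+ cells ran from −2.09 to −1.40. Bax to Bcl2 stood at −1.71 ± 0.30 (SD, n = 3) in GFP+ cells and −2.97 ± 0.06 (SD, n = 3) in GFP− cells, with all 10 other libraries between −3.62 and −2.89. Bcl2l1 to Bcl2 stood at −2.02 ± 0.30 (SD, n = 3) against −3.51 ± 0.12 (SD, n = 3), and the 10 others between −4.02 and −3.43. For these 3 ratios the GFP+ libraries lay apart from all others. This followed from the levels given above and is no separate result. Bcl2, in all 3 ratios, was lower in GFP+ libraries than in any other, and Bax and Bcl2l1 were higher. Bcl2l11 alone did not set GFP+ libraries apart, with 84.2 to 114 CPM in Eomes-TKO IgG cells. Bcl2l11 to Mcl1 did not separate: it was −2.16 ± 0.12 (SD, n = 3) in GFP+ cells and reached −2.19 in an Eomes-TKO IgG library.

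**Figure D3:**
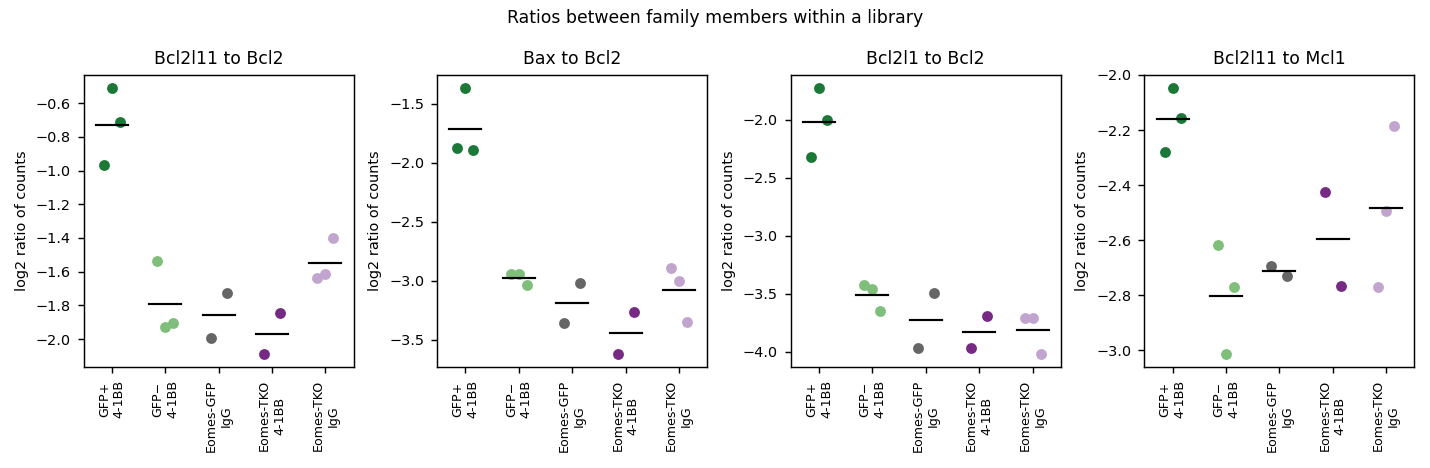
Log2 ratio of counts between 2 genes within a library (vertical axes) for 4 pairs, by group, with a point per library and bars at group means. GFP+ libraries lie above all 10 others for the 3 ratios to Bcl2, and meet an Eomes-TKO IgG library at −2.19 for Bcl2l11 to Mcl1.

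Levels were compared between genes as TPM (counts per exon length, scaled to a common total). Lengths came from GENCODE M21 and covered the genes holding 98.377% of counts. Mcl1 was the most abundant of the 10 in every group, from a mean of 521 TPM in GFP+ cells to 675 TPM in GFP− cells. In GFP− cells Bcl2 (126 ± 20.1 TPM, SD, n = 3) and Bak1 (111 ± 4.47 TPM) came next with overlapping ranges, then Bax (93.0 ± 11.1 TPM) and Bcl2l11 (41.4 ± 5.56 TPM). Bbc3 (22.6 TPM) and Bcl2l1 (21.9 TPM) overlapped, as did Bid (15.4 TPM) and Pmaip1 (12.6 TPM), and Bad was lowest by mean at 9.64 TPM.

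In GFP+ cells the order was different. Bak1 (198 ± 13.2 TPM, SD, n = 3) and Bax (129 ± 18.2 TPM) followed Mcl1 without overlap, and Pmaip1 (89.0 ± 14 TPM) and Bcl2 (72.1 ± 5.07 TPM) came after them with touching ranges. Bcl2l11 (49.7 TPM), Bid (41.7 TPM) and Bcl2l1 (35.7 TPM) followed, with Bid overlapping each of its neighbours. Bbc3 (16.8 TPM) and Bad (10.8 TPM) were lowest and did not overlap.

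The 3 undivided groups had the order of GFP− cells from Mcl1 to Bcl2l11, by mean with these lengths, with Bcl2 at 141 TPM (Eomes-GFP IgG), 152 TPM (Eomes-TKO 4-1BB) and 132 TPM (Eomes-TKO IgG). Pmaip1 was lowest by mean in each of them, at 4.78, 6.56 and 5.52 TPM. With the length of the longest transcript in place of all exon bases, the median over 13 libraries moved from 21.0 to 28.8 TPM for Bcl2l1 and from 45.3 to 54.6 TPM for Bcl2l11, and Mcl1 stood at 484 TPM. The order of the effectors depended on the length used: Bak1 moved from 106 to 81.6 TPM and Bax from 90.4 to 98.6 TPM, which put Bax above Bak1. With it Bax was above Bak1 by mean in GFP− cells (101 against 84.8 TPM) and in each undivided group, and in GFP+ cells Bak1 (153 TPM) and Bax (141 TPM) overlapped. In GFP+ cells Bcl2 (70.3 TPM) then stood above Pmaip1 (68.3 TPM), and Bcl2l1 (48.9 TPM) above Bid (46.9 TPM), with overlapping ranges.

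**Figure D4:**
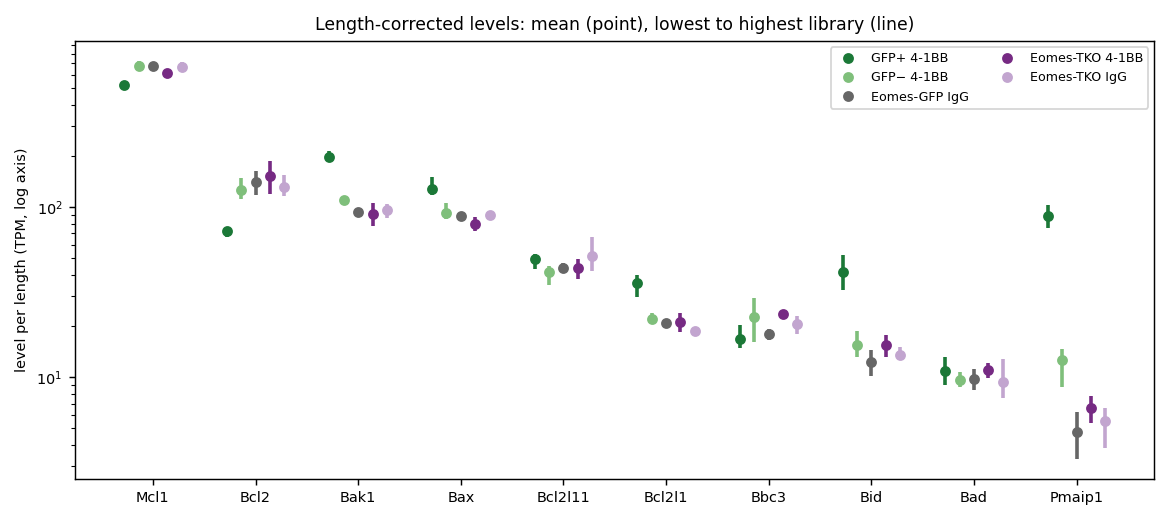
Length-corrected level of the 10 genes (TPM, log axis) in the 5 groups, with points at group means and lines from the lowest to the highest library. Mcl1 is highest in every group, and Pmaip1 moves from 12.6 TPM in GFP− cells to 89.0 TPM in GFP+ cells.

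The genes with the most similar pattern over the 13 libraries were read from Pearson's r of log2 CPM among 7098 genes averaging 4 or more on that scale. Libraries of a group share its mean, so each r reflects the groups as well as the libraries and is given as a description. Nearest to Bcl2 were Usp28 (0.967), Fto (0.961) and Mgat4a (0.961). Nearest to Bcl2l1 were Mfsd10 (0.972), Kdm4a (0.964) and Ankib1 (0.963). Mcl1 was nearest to Sema4b (0.941), Rcn2 (0.928) and Wdr18 (0.926). Bcl2l11 had the loosest neighbours of the 4, Tmem154 (0.874), Hdac5 (0.862) and Tmem62 (0.861).

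Other genes of the pathway were read from lists, in GFP+ against GFP− cells, beside the 20.7% of all genes higher and 16.5% lower. Of 16 further Bcl2 family genes 10 were tested: 2 were higher, 1 was lower and 7 did not pass, with a median log2 difference of 0.55. Bcl2a1d (28.5 ± 2.82 against 6.59 ± 0.484 CPM, SD, n = 3 each) and Bcl2a1b (42.4 against 12.9 CPM), copies of the gene for the pro-survival protein A1, were higher by 2.11 ± 0.21 (adjusted p = 2.09e-06) and 1.72 ± 0.21 (1.96e-05). Because the A1 copies are nearly identical, the split of reads between them is uncertain. Bnip3, a mitophagy receptor, was lower (1.14 against 4.30 CPM, log2 −1.89 ± 0.31, adjusted p = 0.000249). Those not passing were Bcl2l2 (0.78), Bcl2l12 (−0.04), Bcl2l13 (0.01), Bcl2l14 (0.69), Bcl2l15 (0.41), Bmf (0.93) and Bnip3l (−0.08). Without GFP− replicate 2, Bcl2l2 passed (1.31, adjusted p = 0.0350), and without GFP− replicate 3 Bmf stood at 1.57 (adjusted p = 0.240). Bcl2a1a, Bcl2a1c, Bcl2l10, Bik, Bok and Hrk were under the filter.

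Downstream of the mitochondrion, 5 of 17 apoptosome, caspase and inhibitor genes were higher in GFP+ cells and 3 were lower, with a median of 0.20. Apaf1, the scaffold of the apoptosome, stood at 171 against 63.6 CPM (1.43 ± 0.14, adjusted p = 1.59e-06). Xiap, an inhibitor of caspases, was higher by 0.57 ± 0.10. Birc3 (−0.63), Birc2 (−0.52), which encode inhibitor of apoptosis proteins, and Endog (−1.17), a mitochondrial nuclease, were lower. The 3 Vdac genes, for channels of the outer mitochondrial membrane, did not pass, at 0.07 (Vdac1), 0.21 (Vdac2) and 0.21 (Vdac3).

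Of 14 death receptor genes 6 were higher, 1 was lower and 7 did not pass, with a median of 0.12. Fasl, the ligand of Fas, was higher by 3.05 ± 0.21 (115 against 13.8 CPM, adjusted p = 5.88e-08). Tnfrsf1b, a TNF receptor, was higher by 1.94 ± 0.18, Tnfsf10, the gene of TRAIL, by 0.96 ± 0.17, and the adaptor Traf1 by 0.58 ± 0.14. Tnfrsf10b, the TRAIL receptor, was lower (−2.02 ± 0.31, adjusted p = 0.000124), and without GFP+ replicate 2 the value was −2.62.

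Of 11 genes of p53 and its targets 10 were tested, with 5 higher, 1 lower and a median of 0.33. The higher ones were led by Perp (4.55 ± 0.55), Cdkn1a (3.43 ± 0.54), Phlda3 (2.61 ± 0.49) and Sesn2 (1.19 ± 0.25), while Trp53 itself was lower (−0.33 ± 0.12, adjusted p = 0.0397). Perp, Cdkn1a and Phlda3 had low means in GFP− cells, 0.506, 1.49 and 0.760 CPM. The 4 that did not pass were Mdm2 (128 against 115 CPM), Zmat3 (63.8 against 55.0 CPM), Ccng1 (225 against 173 CPM) and Aen (26.0 against 32.0 CPM). Without GFP+ replicate 2, Cdkn1a was higher by 2.57 (adjusted p = 0.000738). The Trp53 call was lost without GFP+ replicate 1 (adjusted p = 0.0979) and without GFP− replicate 2 (0.151) or 3 (0.0780). Pmaip1 and Bbc3 are also known p53 targets, and as given above Pmaip1 passed and Bbc3 did not.

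Of 10 transcription factors known to act on family genes, 4 were lower, 1 was higher and the median was −0.39. Foxo1 (−1.0 ± 0.09) and Foxo3 (−0.89 ± 0.08), forkhead factors known for inducing Bim and Puma, were lower, as were Myc (−1.91 ± 0.23) and Stat5a (−0.47 ± 0.09), and E2f1 was higher (1.22 ± 0.29). Of 6 survival cytokine receptor genes 2 were higher and 3 lower, with a median of −1.0. Il7r stood at 47.6 against 447 CPM (−3.23 ± 0.28, adjusted p = 3.74e-06), and Il4ra (−1.79 ± 0.11) and Il2ra (−1.77 ± 0.36) were lower too. Il2rb, the receptor chain shared by interleukins 2 and 15, stood at 1092 against 210 CPM (2.38 ± 0.22), and Il15ra was higher by 1.46 ± 0.16. Of 5 genes for enzymes that add ubiquitin to Mcl1 or remove it, 1 was lower, Huwe1 (−0.40 ± 0.09), and 4 did not pass.

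**Figure D5:**
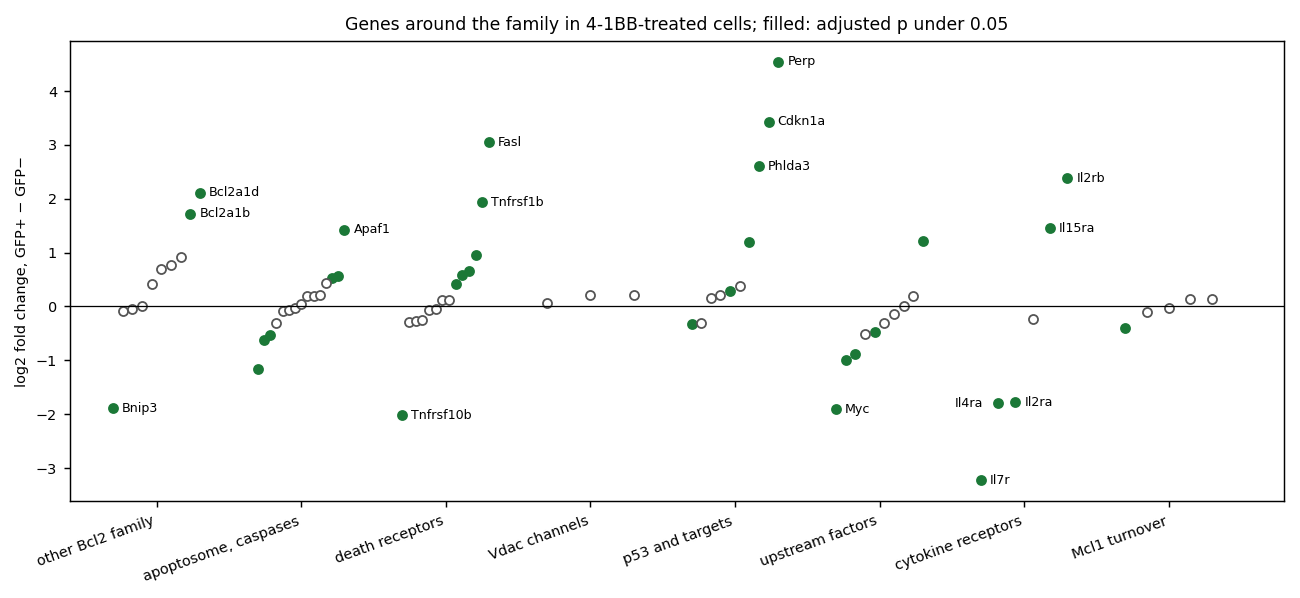
Log2 difference between GFP+ and GFP− cells (vertical axis) for the tested genes of 8 lists around the Bcl2 family that are reported here, filled at adjusted p under 0.05. The largest values are Perp at 4.55 and Cdkn1a at 3.43, and the lowest is Il7r at −3.23. Perp and Cdkn1a had low means in GFP− cells, 0.506 and 1.49 CPM.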

How the data were processed

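RNA of 13 libraries was quantified per gene. The authors deposited 1 table of estimated counts; the submitters' processing notes name the build GRCm39 and, in no given order, Salmon 1.5.2, STAR 2.7.10a, Trim Galore 0.6.7 and cutadapt 3.4. Between 6.25% and 7.33% of a library's values were not whole, and all were rounded. Of 47 library columns 34 were not used here. Per the labels, libraries were made from 11 ng of RNA after ribosomal RNA depletion.

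Differences in counts were tested in R 4.3.3 by edgeR 4.0.16 (TMM, filterByExpr, robust quasi-likelihood, two-sided, adjusted over 14059 genes) in 1 model of 13 libraries, 5 groups and 8 residual degrees of freedom. SE is the size of the log2 fold change over √F. Adjusted p-values are those of this model except where a tool is named, and 3 counts equal 0.271 to 0.468 CPM. DESeq2 1.42.0, limma-voom (limma 3.58.1), other scalings and filters, replicate blocks, a 1.5-fold threshold and leaving out each library were alternatives. In a simulation of GFP+ against GFP− libraries with 13693 genes, the test found 61 of 66 genes simulated at 4-fold, 53 of 67 at 2-fold and 24 of 67 at 1.5-fold, and made 9 false calls. For Eomes-TKO 4-1BB against IgG with 13676 genes, the numbers were 64 of 66 at 4-fold, 40 of 67 at 2-fold and 15 of 67 at 1.5-fold, and 7 false calls. Only the genes counted here were changed in each simulation, whereas 37.1% of all genes passed in GFP+ against GFP− cells. With few changed genes the adjustment is stricter, so these shares do not tell how many such changes were found in that comparison.

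GFP+ and GFP− libraries of 1 number share a library prefix, read as the animal. Their deviations from group means correlated at 0.32, 0.11 and 0.06, against −0.25 to 0.15 for other pairs. Deviations from a group's mean cancel out over its libraries, so a positive value for 1 pair by itself lowers those of others. The value of 0.11 also lay below the highest of the other pairs. These values therefore cannot decide whether a prefix marks an animal. No label says more on whether replicates are separate animals. P-values therefore cover the spread between libraries, which may be technical. Replicates differed beyond counting noise (chi-square per degree of freedom 8.01 to 30.9). The genes and lists were chosen with earlier results of these data known. All 10 genes were named in each comparison, and from each list up to 4 genes per direction by the smallest p, of which some are not reported here. Patterns of similar genes took the 3 highest r, leaving out unnamed gene models.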

Additional observations from a re-analysis of the deposited data

How the results depend on the processing

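Of 1070 recomputed fold changes of the 10 genes over all comparisons and alternatives, 1001 kept their direction and side of the threshold, 46 changed sign while called in neither setting, 17 lost the call, 6 gained it and 0 called values changed sign. Against a 1.5-fold threshold, 2 genes (Pmaip1 and Bid) passed in GFP+ against GFP− cells, where 2146 of all 14059 genes did. In GFP+ cells against Eomes-GFP IgG 4 passed, where 2214 of all genes did. In GFP− cells against Eomes-GFP IgG, 1 gene (Pmaip1) passed with no filter on low counts, in DESeq2, with the groups alone and with the replicate number as a block (adjusted p = 0.0173). These 2 groups share no library prefix, so there the number is no pairing. In these cases the cause was not tested. With the replicate block of number or shared prefix, 7 genes passed in GFP+ against GFP− cells, and the block changed no other call of the 10 genes. Leaving out single libraries gave 6 to 8 genes in GFP+ against GFP− cells, 5 to 7 in GFP+ cells against Eomes-GFP IgG, 6 in Eomes-TKO 4-1BB against GFP+ cells and 0 in the other 4 comparisons. Where this left 1 library in a group, it was assumed to vary like the other groups. In GFP+ against GFP− cells, leaving out single libraries called 4188 to 4612 of all genes.

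Over all genes, alternatives other than leaving out a library called 2146 to 5514 genes in GFP+ against GFP− cells (5220 as reported), 2214 to 5080 in GFP+ cells against Eomes-GFP IgG (4809), 3 to 521 in GFP− cells against Eomes-GFP IgG (107), and 2153 to 5146 in Eomes-TKO 4-1BB against GFP+ cells (4859). The counts were 0 to 112 for Eomes-TKO IgG against Eomes-GFP IgG (2), 0 to 258 for Eomes-TKO 4-1BB against Eomes-TKO IgG (6) and 0 to 220 for Eomes-TKO 4-1BB against GFP− cells (6). Leaving out single libraries gave 1 to 21 genes in GFP− cells against Eomes-GFP IgG. Upper-quartile scaling moved the median of all genes to −0.12 in GFP+ against GFP− cells and the share of called genes that were higher from 55.7% to 41.4%. For GFP+ cells against Eomes-GFP IgG that share went from 54.9% to 41.9%, and for Eomes-TKO 4-1BB against GFP+ cells from 45.6% to 60.8%. In the first 2 of these comparisons 7 of the 10 genes passed under it. Groups of 2 and 3 libraries limit all comparisons. Changes of 1.5-fold were mostly missed in simulations where few genes changed. In GFP+ against GFP− cells, where many genes changed, Mcl1 (1.27-fold lower) and Bax (1.42-fold higher) passed.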
